A study of Caenorhabditis elegans with 4 samples.

Results

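The col genes are the numbered family of Caenorhabditis elegans genes that encode mostly cuticle collagens, and they were taken as the rows of the authors' deposited table whose name is col- followed by digits alone. This gave 102 genes with a mean normalized count of at least 10 and a further 39 with a lower mean, among the 18468 genes and 18638 features of the table. A further 16 numbered col genes of the annotation used here (Ensembl release 115, WBcel235) are not analysed here. The mutant animals were strain YY1449, which the design text calls rde-3, and the controls were N2, the standard laboratory wild type, with 2 libraries of each. All 4 libraries were polyadenylated RNA from populations of whole gravid adults, which carry embryos. The rde-3 gene, listed as mut-2, makes the enzyme that puts poly(UG) tails on RNAs, and RNA interference and the silencing of transposons need it. With 1 strain per genotype, the rde-3 mutation and any other difference between the strains cannot be told apart. The design text calls the 2 libraries of a strain biological replicates, and nothing else in the sources used here says how the cultures were kept apart.

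The cuticle is the outer coat of the worm, made by the epidermis and rebuilt at each moult. Its collagens are short secreted proteins with Gly-X-Y repeats. They fold as triple helices, are hydroxylated in the endoplasmic reticulum, cut by proteases and cross-linked outside the cell. Different stages use different collagens, and within each moult they are made in successive waves, so the set in use tells of stage and of moulting. Adults no longer moult, and col-19, an adult collagen switched on by the transcription factor LIN-29, is widely used as a marker of the adult epidermis.

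The deposited values are 1 mean normalized count, 1 log2 fold change and its standard error per gene, with no column per library. The number of reads in each library could nevertheless be worked out. Under a mean of 1000, only 1 set of 4 whole numbers near the deposited ratio gave each deposited mean. From 1000 up, several sets can give the mean, and the set that also gave the exact deposited log2 was kept. A single set was found for all 18613 features with a mean of up to 40000, every col gene among them. Shares of genes by the order of their libraries are over the genes with such a set, 18443 of the 18468. The libraries held 14042118 and 8716201 such reads for the mutant, with size factors of 1.06 and 0.707, and 16847031 and 11968300 for the wild type, with size factors of 1.42 and 0.963. Values per library below are reads divided by size factor, called normalized counts, and follow that order within each genotype. Which of the labelled replicates a library is was not recovered. No header states the direction of log2, and it is read as mutant over wild type because the comparison names the mutant first. A gene is called where its adjusted p in the authors' deposited table is under 0.05. The targeted gene mut-2 had 846 and 745 normalized counts in mutant libraries, against 726 and 805 in wild-type libraries. Its difference of log2 0.06 ± 0.16 was not called (adjusted p = 0.905, the authors' deposited table), and the RNA level of a mutated gene need not fall.

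Abundant col genes were lower in the mutant and a few scarce ones were higher. Of the whole family, 32 were lower (22.7%, against 8.11% of all genes), 8 were higher (5.67%, against 9.41% of all genes) and 101 were not called. The median log2 in the authors' deposited table was -0.23 over the col genes and -0.02 over all genes. Calls and medians were also recomputed with each library left out in turn, from the reads worked out and the dispersions that the deposited errors imply. The 8 higher calls were then 4 without the mutant library of size factor 1.06 and 5 without the wild-type library of size factor 0.963. The median of the family was -0.04 without the wild-type library of size factor 1.42 and -0.34 without that of 0.963. Summed over the family, the col genes held 284128 and 319341 normalized counts in mutant libraries, against 552493 and 474175 in wild-type libraries. Both mutant sums lay below both wild-type sums, and the mean was 301734 ± 24899 in the mutant and 513334 ± 55379 in the wild type (SD, n = 2 each), 1.70-fold lower in the mutant. With 2 libraries against 2, an exact two-sided permutation test cannot give a p under 0.333, and no test of the sum is given. Where the deposited statistics were given the tails of a t distribution (2 degrees of freedom) in place of the normal, none of the 40 calls of col genes passed, the smallest adjusted p being 0.682, and none of the other genes of the table passed either. With a trend of log2 on transcript length removed, 36 of the 40 calls were kept, col-158 was added and the median of the family was -0.09. The 4 calls lost were those of col-8, col-12, col-133 and col-178, whose log2 was then -0.33, -0.62, -1.41 and -0.35. As a share of all reads worked out, the family took 2.14% and 2.59% in mutant libraries, against 4.65% and 3.82% in wild-type libraries. In whole animals that carry embryos, less collagen RNA per epidermal cell and a smaller share of epidermal RNA cannot be told apart.

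**Figure D1:**
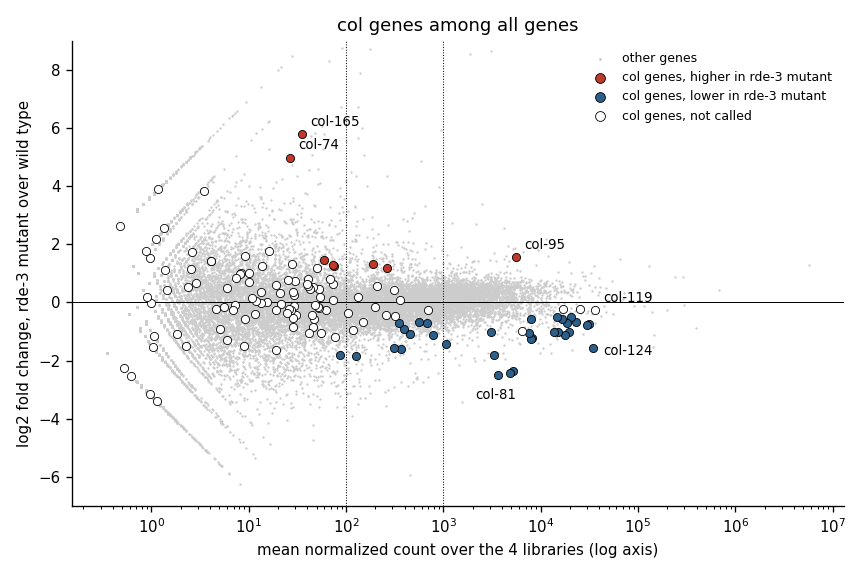
Each grey dot is a gene and each large circle a col gene, by mean normalized count over the 4 libraries (log axis) and log2 fold change of rde-3 mutant over wild type in the authors' deposited table, with dotted lines at means of 100 and 1000. Right of 1000 the col genes lie below 0 except col-95, while the highest col points are the scarce col-165 and col-74.

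The direction followed the level of expression. Among the 27 col genes with a mean over 1000, 22 were lower (81.5%, against 14.5% of the 2860 genes at that level), and 1, col-95, was higher (3.70%, against 32.3%). Their median log2 was -1.01 in the authors' deposited table, and that of all genes at that level was 0.19. Both mutant libraries lay below both wild-type libraries for 26 of the 27 and above them for col-95. Among the 2835 genes at that level with reads worked out, these shares were 26% and 53.4%. Among the 22 with a mean of 100 to 1000, 9 were lower (40.9%, against 15.2%) and 2 were higher (9.09%, against 11.1%), with a median log2 of -0.56, against -0.03 for all 4796 genes of that level in the authors' deposited table. Without the wild-type library of size factor 1.42, 5 of these 22 were lower and their median was -0.31.

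Among the 92 with a mean under 100, 5 were higher (5.43%, against 2.61% of 10812 genes) and 1 was lower (1.09%, against 3.25%). The median log2 there was 0.23 in the authors' deposited table, with 51 values above 0, against a median of -0.15 for all genes under 100. Leaving out the mutant library of size factor 1.06 or the wild-type library of size factor 0.963 left 2 of the 5 higher calls. The single lower call, col-7, was lost without the mutant library of size factor 1.06 or the wild-type library of size factor 1.42, and 3 were lower without the mutant library of size factor 0.707. The median of this bin ran from 0.12 without the wild-type library of size factor 0.963 to 0.40 without the mutant library of size factor 1.06. None of the 39 with a mean under 10 was called in the authors' deposited table, where their median standard error was 2.01 on the log2 scale, so changes of several fold were not detectable at that depth. Within the family, the Spearman correlation across genes between log2 and mean was -0.52 over the 102 col genes with a mean of at least 10, and 0.16 over the 12305 genes of the table at that level. This is a description, since the genes share libraries and both quantities come from the same counts.

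**Figure D2:**
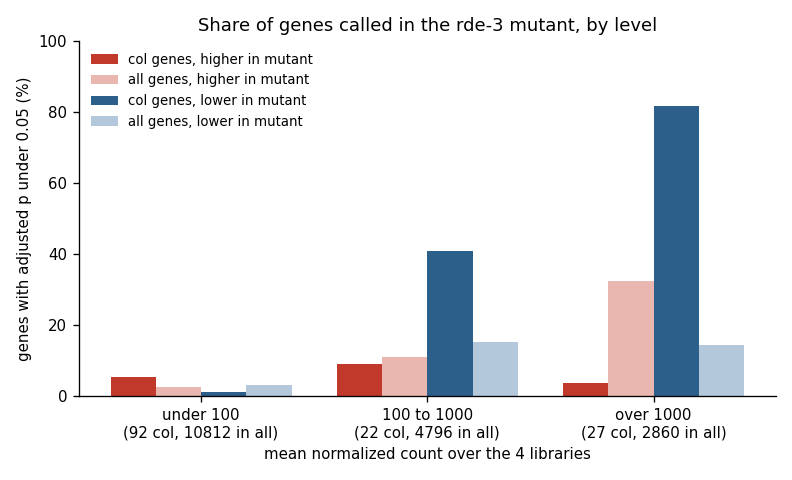
Bars give the percentage of genes with an adjusted p under 0.05 in the authors' deposited table, for col genes and for all genes, higher or lower in the rde-3 mutant, in 3 bins of mean normalized count. Lower calls reach 81.5% of the col genes over 1000, against 14.5% of all genes there, and under 100 they are 1.09% against 3.25%.

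A few genes carried most of the collagen RNA. The 15 col genes with a mean over 10000 made up 81.8% of the family's normalized counts, and the 27 over 1000 made up 97.7%. Of these 15, 12 were lower (80.0%, against 25.5% of the 212 genes at that level) and none was higher (against 34% of those genes). By mean normalized count per kilobase of transcript, the order was led by col-119 at 41133, col-122 at 32906, col-140 at 32256 and col-124 at 30788. The most abundant of all, col-119 (chromosome IV, 8978926 to 8979795, minus strand, WBcel235), had 30586 and 34094 normalized counts in mutant libraries, against 41491 and 36972 in wild-type libraries. Its 2 mutant libraries lay below both wild-type libraries, but the difference was small and not called (log2 -0.28 ± 0.12, adjusted p = 0.0857, the authors' deposited table).

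The adult marker col-19 (chromosome X, 421707 to 422691, plus strand, WBcel235; 289 residues) had 10121 and 12319 normalized counts in mutant libraries, against 26144 and 22664 in wild-type libraries. Both mutant libraries lay well below both wild-type libraries. Its fall was 2.18-fold (log2 -1.12 ± 0.13, adjusted p = 1.38e-15, the authors' deposited table) and passed the threshold with any 1 library left out. The span of col-19 also holds ZK1193.2 on the opposite strand, which was higher at log2 0.96 ± 0.20 (adjusted p = 5.80e-05, the authors' deposited table). The library kit keeps no record of strand, so reads of 2 genes that share bases cannot be told apart.

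Most of the other abundant members fell too. The pair col-122 and col-140 had nearly the same values throughout. For col-122 (chromosome IV) these were 23158 and 23838 normalized counts in mutant libraries, against 42037 and 36929.8 in wild-type libraries, and its log2 was -0.75 ± 0.11 (adjusted p = 2.44e-09, the authors' deposited table). For col-140 (chromosome V) they were 21681 and 22862 normalized counts in mutant libraries, against 40616 and 35092 in wild-type libraries, and its log2 was -0.77 ± 0.12 (adjusted p = 2.98e-09, the authors' deposited table). Larger falls came from col-93, col-80, col-20, col-42, col-98 and col-103, with log2 from -1.01 to -1.25 in the authors' deposited table. Their standard errors ran from 0.12 to 0.15. col-103 (chromosome IV, 762413 to 763678, minus strand) had 4413 and 5114 normalized counts in mutant libraries, against 12331 and 10241 in wild-type libraries, with a log2 of -1.25 ± 0.13 and the smallest adjusted p of the family in the authors' deposited table, 1.05e-18. col-181 (log2 -0.67 ± 0.13) was lower as well in the authors' deposited table. Smaller falls were those of col-178 (log2 -0.52 ± 0.14), col-8 (log2 -0.51 ± 0.14) and col-106 (log2 -0.59 ± 0.14) in the authors' deposited table. All 3 lost their calls without the mutant library of size factor 1.06, at adjusted p of 0.213, 0.188 and 0.0854. The first 2 also lost theirs without the wild-type library of size factor 1.42, at 0.0872 and 0.109. Among the 27 genes over 1000, 4 were not called. Besides col-119 these were col-101 (log2 -0.23 ± 0.12), col-143 (log2 -0.22 ± 0.11) and col-179 (log2 -0.97 ± 0.41, adjusted p = 0.0905), all from the authors' deposited table.

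**Figure D3:**
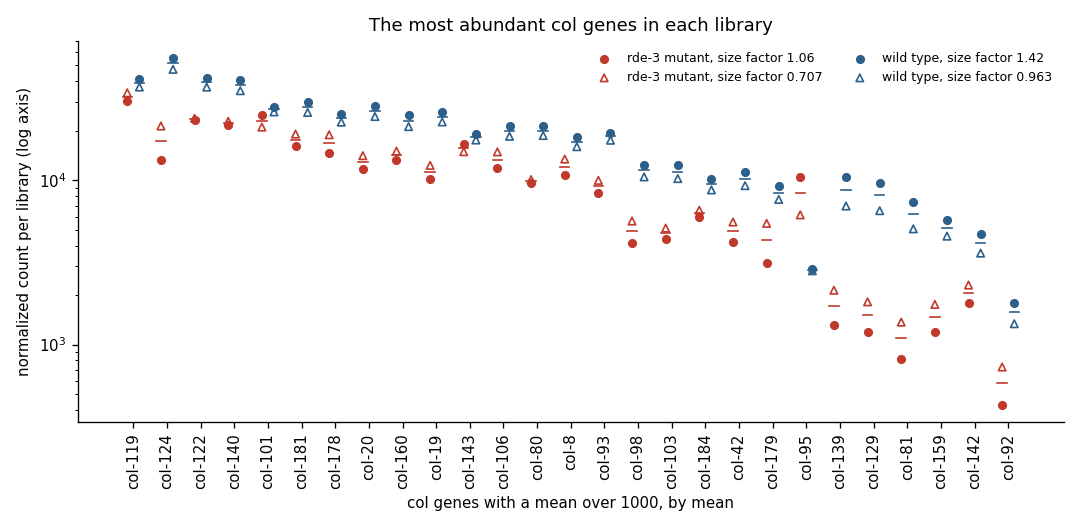
Normalized counts (log axis) of the 27 col genes with a mean over 1000 in each library, mutant left (red) and wild type right (blue) of each position, with a line at each genotype's mean. Mutant points lie below wild-type points except for col-95, and the gap is widest for col-139, col-129 and col-81.

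The genes with the lowest log2 values over a mean of 1000 also had large errors for their level. col-81 (chromosome II, 11012397 to 11013767, minus strand) had 821 and 1369 normalized counts in mutant libraries, against 7359.8 and 5061 in wild-type libraries. Its level was 5.68-fold lower in the mutant (log2 -2.50 ± 0.45, adjusted p = 7.32e-07, the authors' deposited table). Next came col-129 (chromosome IV), with 1191 and 1820.1 normalized counts in mutant libraries, against 9655 and 6529 in wild-type libraries, at log2 -2.43 ± 0.41 (adjusted p = 1.20e-07, the authors' deposited table). col-139 (chromosome V) had 1308 and 2141 normalized counts in mutant libraries, against 10536 and 6974 in wild-type libraries, at log2 -2.34 ± 0.46 (adjusted p = 6.69e-06, the authors' deposited table). In all 3 the genotypes were far apart, and within each genotype the library that was higher for one gene was higher for all 3.

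The second most abundant member, col-124 (chromosome IV, 10216451 to 10217617, plus strand), had 13252 and 21396 normalized counts in mutant libraries, against 55573 and 47339 in wild-type libraries. It fell 2.97-fold, at log2 -1.57 ± 0.36 (adjusted p = 0.000197, the authors' deposited table). Likewise col-159 (chromosome V), which shares 1196 annotated bases with col-160 on the same strand so that the split of reads between them is uncertain, had 1189 and 1755 normalized counts in mutant libraries, against 5731 and 4569 in wild-type libraries. It was lower at log2 -1.81 ± 0.32 and col-160 at log2 -0.70 ± 0.12 in the authors' deposited table. col-92 (log2 -1.44 ± 0.43) and col-133 (log2 -1.58 ± 0.54) were lower too in the authors' deposited table. Each lost its call without the mutant library of size factor 1.06 at adjusted p of 0.191 and 0.272, and without the wild-type library of size factor 1.42, at 0.139 and 0.378. For 9 of the 39 col genes with a mean of at least 300, col-81, col-92, col-95, col-124, col-129, col-133, col-139, col-159 and col-179, the standard error was over 2 times the median of genes within 1.5-fold of their mean. The highest such ratio was 3.66, for col-139.

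Falls among members of middle level included some of similar size. col-153 (chromosome V), with 48.3 and 62.2 normalized counts in mutant libraries, against 216 and 176 in wild-type libraries, was lower at log2 -1.84 ± 0.33 (adjusted p = 6.63e-07, the authors' deposited table). col-149 (chromosome V) had 146 and 222 normalized counts in mutant libraries, against 687 and 420.5 in wild-type libraries and was lower at log2 -1.60 ± 0.27 (adjusted p = 7.65e-08, the authors' deposited table). Both stood clear of the wild type in each mutant library. Besides col-133, the other lower members between 100 and 1000 were col-155, col-118, col-147, col-12, col-96 and col-94, with log2 from -1.11 to -0.66 in the authors' deposited table. col-147 was not called without the mutant library of size factor 0.707 (adjusted p = 0.102) or without the wild-type library of size factor 1.42 (adjusted p = 0.408), and col-94 without the mutant library of size factor 1.06 (adjusted p = 0.0635) or the wild-type library of size factor 1.42 (adjusted p = 0.0617).

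Of the 8 higher members, only col-95 had a mean over 300. col-95 (chromosome III, 11703994 to 11705091, plus strand) had 10502 and 6159 normalized counts in mutant libraries, against 2869 and 2811 in wild-type libraries. Both mutant libraries exceeded the wild type but differed from each other, and the rise was 2.93-fold (log2 1.55 ± 0.38, adjusted p = 0.000526, the authors' deposited table). Without the mutant library of size factor 1.06, the higher of the pair, its log2 was 1.12 and its adjusted p 0.110, so that no col gene over 1000 was then called higher. The largest rises were those of col-165 (chromosome X, 4353618 to 4354852, plus strand) and col-74 (chromosome II, 5830374 to 5832022, plus strand), which were nearly silent in the wild type. col-165 had 61.6 and 76.4 normalized counts in mutant libraries, against 1.41 and 1.04 in wild-type libraries, from 119 mutant and 3 wild-type reads. The ratio of these reads after scaling was 53.6 (95% exact Clopper-Pearson interval 17.9 to 263, counting error only), and its log2 was 5.78 ± 0.99 (adjusted p = 1.78e-07, the authors' deposited table). col-74 had 53.0 and 50.9 normalized counts in mutant libraries, against 2.12 and 1.04 in wild-type libraries, from 92 mutant and 4 wild-type reads. Its ratio was 31.1 (interval 11.7 to 116), and its log2 was 4.97 ± 0.94 (adjusted p = 3.22e-06, the authors' deposited table). Both genes were far above the wild type in each mutant library and were called with any 1 library left out. The span of col-74 is shared on the opposite strand with gtap-1, which is not analysed here.

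The other higher members rose by 2.25-fold to 2.75-fold. col-76 (chromosome II), a longer collagen of 499 residues, had 299 and 247 normalized counts in mutant libraries, against 119 and 97.6 in wild-type libraries, at log2 1.33 ± 0.27 (adjusted p = 1.32e-05, the authors' deposited table). col-117 (chromosome IV) had 427 and 304 normalized counts in mutant libraries, against 179.8 and 145 in wild-type libraries, at log2 1.17 ± 0.25 (adjusted p = 6.03e-05, the authors' deposited table). In neither did the genotypes overlap, and both calls held with any 1 library left out. col-107 was higher at log2 1.46 ± 0.50 in the authors' deposited table, but not without the mutant library of size factor 1.06 (adjusted p = 0.465) or the wild-type library of size factor 0.963 (adjusted p = 0.300).

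Sorted by recalled stage of use, 2 of 3 adult collagens were called lower and 2 of 6 L4 collagens higher, where 8.11% of all genes were lower and 9.41% higher. Of the adult genes, col-19 had a mean over 1000, where 81.5% of col genes and 14.5% of all genes were lower. The other 2 had a mean under 100, where 1.09% of col genes and 3.25% of all genes were lower. All 3 adult genes were below the wild type in both mutant libraries, as were 30.5% of all genes, with a median log2 of -1.19 in the authors' deposited table. Beside col-19, col-7 had 26.5 and 52.3 normalized counts in mutant libraries, against 176 and 91.4 in wild-type libraries. It was lower at log2 -1.80 ± 0.45 (adjusted p = 0.000827, the authors' deposited table), though not without the mutant library of size factor 1.06 (adjusted p = 0.104) or the wild-type library of size factor 1.42 (adjusted p = 0.152). Its neighbour col-62 had 23.7 and 72.1 normalized counts in mutant libraries, against 138.2 and 75.8 in wild-type libraries, with a log2 of -1.19 ± 0.50 that was not called (adjusted p = 0.0814, the authors' deposited table).

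Of the 6 genes recalled as collagens of the last larval stage, L4, 2 were higher (33.3%, against 2.61% of genes with a mean under 100, as all 6 had) and none lower. Both mutant libraries were above both wild-type libraries for 4 of the 6, against 29.4% of all genes. All 6 log2 values were above 0, as were 44.8% of genes with a mean under 100, with a median of 0.64 in the authors' deposited table. col-38 had 103 and 110.3 normalized counts in mutant libraries, against 46.5 and 42.6 in wild-type libraries. It was higher at log2 1.26 ± 0.38 (adjusted p = 0.00911, the authors' deposited table) with little spread within a genotype. col-71 had 107 and 102 normalized counts in mutant libraries, against 50.1 and 34.3 in wild-type libraries and was higher at log2 1.30 ± 0.40 (adjusted p = 0.0103, the authors' deposited table). The col-38 call was lost when any 1 of the 4 libraries was left out, at adjusted p of 0.0519 without the mutant library of size factor 1.06, 0.0634 without that of 0.707, 0.0595 without the wild-type library of size factor 1.42 and 0.0690 without that of 0.963. The col-71 call was lost without the mutant library of size factor 1.06 at an adjusted p of 0.0838, and without the wild-type library of size factor 0.963, at 0.145. The others, col-63, col-138, col-175 and col-49, had log2 values from 0.75 to 0.34 with standard errors from 0.51 to 0.74 in the authors' deposited table. The span of col-138 lies within C52D10.3, a more abundant gene on the opposite strand with a log2 of 1.36 in the authors' deposited table.

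Of the 4 collagens recalled as used through the larval stages, col-12 was lower and none was higher. 2 of the 4, col-12 among them, had a mean of 100 to 1000, where 40.9% of col genes and 15.2% of all genes were lower. col-12 had 207 and 322 normalized counts in mutant libraries, against 514 and 341 in wild-type libraries, at log2 -0.70 ± 0.26 (adjusted p = 0.0425, the authors' deposited table), and lost its call without the mutant library of size factor 1.06 (adjusted p = 0.585) or the wild-type library of size factor 1.42 (adjusted p = 0.668). Its neighbour col-13 had a log2 of -0.94 ± 0.40, col-14 of 0.63 ± 0.46 and col-17 of 1.32 ± 0.62 in the authors' deposited table, none of them called. The 2 genes of the table recalled from dauer larvae, col-2 and col-40, had means of 8.84 and 2.25 and, at log2 -1.49 ± 1.13 and -1.52 ± 2.13, were not called in the authors' deposited table. The log2 values of the adult and L4 lists lay on opposite sides of 0, but the lists hold 3 and 6 genes and the difference between lists was not tested.

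**Figure D4:**
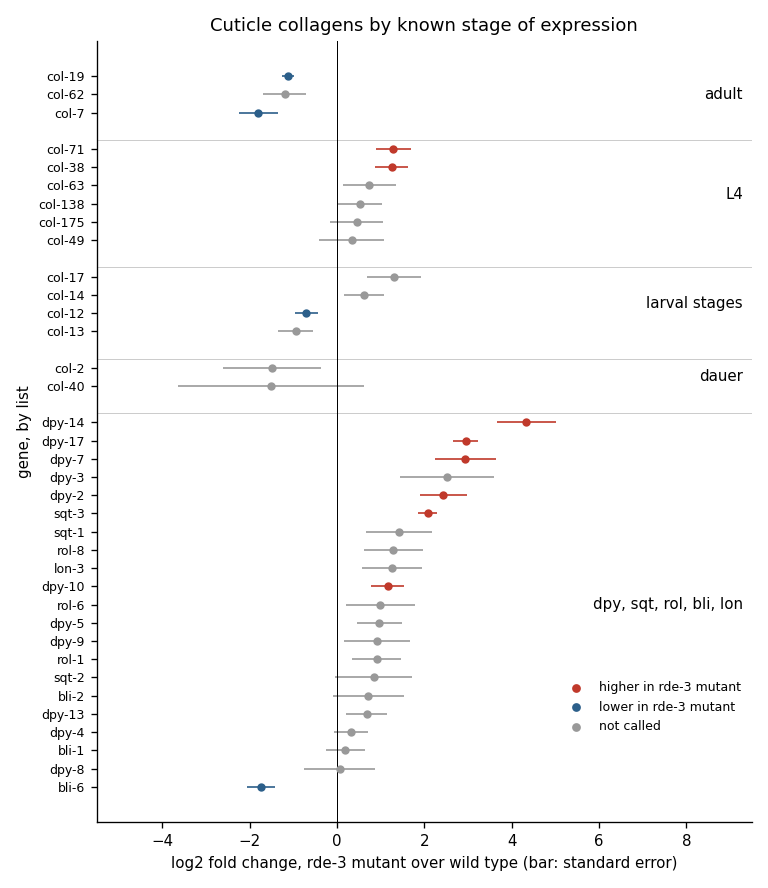
Points give the log2 fold change of rde-3 mutant over wild type in the authors' deposited table, with bars of 1 standard error, for collagens by recalled stage and for the cuticle collagens with dpy, sqt, rol, bli and lon names. The 3 adult genes lie left of 0, the 6 L4 genes right of 0, and of the 21 named cuticle collagens only bli-6 lies left of 0.

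Among col genes recalled from other settings 3 were called, all lower. They are the only members of these lists with a mean over 1000, where 81.5% of col genes and 14.5% of all genes were lower. Of 3 genes reported as responding to BMP signalling, which sets body size through the epidermis, col-142 (chromosome V) was lower, with 1793 and 2304 normalized counts in mutant libraries, against 4694 and 3602 in wild-type libraries. Its log2 was -1.02 ± 0.16 (adjusted p = 1.01e-08, the authors' deposited table), while col-141 at -1.05 ± 0.49 and col-41 at 1.26 ± 0.87 were not called there. Of 3 linked to infection or osmotic stress, col-81 and col-92 were lower and col-97 was not called, at log2 -0.16 ± 0.52 in the authors' deposited table. None of the 5 tied to lifespan, col-10, col-13, col-120, col-121 and col-144, was called, with log2 from -0.94 to 1.77 in the authors' deposited table. Of all genes, 9.41% were higher and 8.11% lower, so for 5 genes this is near the background. The one member known to encode a transmembrane collagen rather than a cuticle collagen, col-99 (735 residues, 17 exons), had a log2 of -0.86 ± 0.63 and was not called (adjusted p = 0.463, the authors' deposited table).

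The other cuticle collagens, known by the body shapes of their mutants, were called higher in 6 cases. Of 21 with dpy (short and fat), sqt, rol (twisted), bli (blistered) and lon (long) names, 6 were higher (28.6%) and 1 was lower (4.76%). 17 of the 21 had a mean under 100, where 2.61% of all genes were higher and 3.25% lower, and 4 a mean of 100 to 1000, where 11.1% were higher and 15.2% lower. Both mutant libraries were above both wild-type libraries for 13 of the 21, against 29.4% of all genes. Values of log2 above 0 were found for 20, as for 44.8% of genes with a mean under 100, with a median of 0.99 in the authors' deposited table. sqt-3, a collagen needed in embryo and larva, had 506 and 585 normalized counts in mutant libraries, against 133 and 124 in wild-type libraries. It was higher at log2 2.08 ± 0.21 (adjusted p = 5.04e-20, the authors' deposited table). dpy-17, a partner of sqt-3, had 328 and 331 normalized counts in mutant libraries, against 47.9 and 36.3 in wild-type libraries, at log2 2.95 ± 0.29 (adjusted p = 1.61e-22, the authors' deposited table). Each mutant library was several times above each wild-type library for both. dpy-14, an embryonic collagen, had 351 and 660.4 normalized counts in mutant libraries, against 33.8 and 15.6 in wild-type libraries, with a log2 of 4.34 ± 0.68 (adjusted p = 1.07e-08, the authors' deposited table). The furrow collagens dpy-7 (log2 2.94 ± 0.70), dpy-2 (log2 2.43 ± 0.54) and dpy-10 (log2 1.16 ± 0.38) were the other higher genes in the authors' deposited table. The lower one was bli-6, with 70.1 and 73.5 normalized counts in mutant libraries, against 288 and 188 in wild-type libraries and a log2 of -1.73 ± 0.32 (adjusted p = 1.19e-06, the authors' deposited table). The other 14, dpy-3, dpy-4, dpy-5, dpy-8, dpy-9, dpy-13, rol-1, rol-6, rol-8, sqt-1, sqt-2, bli-1, bli-2 and lon-3, were not called, with log2 from 0.06 to 2.52 in the authors' deposited table. The means of the 7 called genes ran from 34.8 to 337, far below those of the abundant col genes, and their part in the col result was not tested.

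Of 20 genes that process collagens, 4 were higher (20%, against 9.41% of all genes), 3 lower (15%, against 8.11%) and 13 not called, with a median log2 of 0.05 in the authors' deposited table. The 4 higher genes all had means over 1000, as did 9 of the 20, and 32.3% of genes at that level were higher, so the higher count is near the background. A further 7 had a mean of 100 to 1000. Lower calls were 15.2% of genes there and 14.5% of genes over 1000, so the lower count is near the background as well. The higher ones were pdi-3 (log2 0.62 ± 0.12) and pdi-1 (log2 0.53 ± 0.12), protein disulphide isomerases, crt-1 (log2 0.51 ± 0.11), the chaperone calreticulin, and sec-24.1 (log2 0.53 ± 0.12), a coat protein of secretory vesicles, in the authors' deposited table. The lower ones were phy-2 (log2 -0.68 ± 0.23) and pdi-2 (log2 -0.48 ± 0.11), which form the collagen prolyl 4-hydroxylase with dpy-18, and bli-3 (log2 -0.49 ± 0.16), the dual oxidase that cross-links the cuticle, in the authors' deposited table. dpy-18 itself had 354 and 409 normalized counts in mutant libraries, against 424 and 379 in wild-type libraries, at log2 -0.08 ± 0.20 (adjusted p = 0.899, the authors' deposited table). Its libraries overlapped between genotypes.

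Of 14 moulting genes, 6 were higher (42.9%, against 9.41% of all genes) and 1 was lower (7.14%, against 8.11%). 8 of the 14 had a mean under 100, where 2.61% of genes were higher, and 5 a mean of 100 to 1000, where 11.1% were higher. The list had a median log2 of 1.30 in the authors' deposited table. These reads, like those of the named cuticle collagens, come from adults together with the embryos they carry. RNA of adults and RNA of embryos cannot be told apart here. mlt-11, a protease inhibitor of the moult, had 174 and 245 normalized counts in mutant libraries, against 44.4 and 39.5 in wild-type libraries, at log2 2.31 ± 0.34 (adjusted p = 3.72e-10, the authors' deposited table). The others were noah-1 (log2 1.33 ± 0.26) and noah-2 (log2 1.37 ± 0.28), proteins of the outer matrix, fbn-1 (log2 1.27 ± 0.28), a fibrillin-like protein, mlt-8 (log2 2.01 ± 0.64) and mlt-9 (log2 1.99 ± 0.69) in the authors' deposited table. nas-37, a protease that opens the old cuticle, was the lower one, with 555 and 589.7 normalized counts in mutant libraries, against 1159 and 1141 in wild-type libraries and a log2 of -1.01 ± 0.15 (adjusted p = 1.73e-09, the authors' deposited table).

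Of 15 epidermal transcription and timing factors, 2 were higher (13.3%) and none lower, near the 9.41% and 8.11% of all genes. The higher ones were nhr-23 (log2 0.46 ± 0.15), a driver of the moulting cycle, and lin-41 (log2 0.63 ± 0.14), an inhibitor of adult fate that also acts in oocytes, in the authors' deposited table. lin-29, the activator of col-19, had 54.9 and 42.4 normalized counts in mutant libraries, against 74.7 and 60.2 in wild-type libraries, at log2 -0.47 ± 0.44 (adjusted p = 0.631, the authors' deposited table), and was not called. None of the 10 genes of BMP signalling in the table was called, where 9.41% of all genes were higher and 8.11% lower. With 10 genes, the lack of calls is not far from these shares. Their log2 ran from -0.48 to 0.41 in the authors' deposited table. Of 8 genes that attach muscle to cuticle through the epidermis, 6 of them with a mean over 1000, 3 were lower (37.5%, against 8.11% of all genes and 14.5% of genes over 1000), ifb-1 (log2 -0.62 ± 0.12), an intermediate filament, mua-3 (log2 -0.61 ± 0.15), a transmembrane receptor, and pat-12 (log2 -0.49 ± 0.13) in the authors' deposited table, and none was higher. For 1 other adult product, vit-2, a yolk protein made in the adult intestine, the log2 was -0.90 ± 0.15 (adjusted p = 4.39e-08, the authors' deposited table). This gene was chosen after its value was seen and does not stand for adult products in general. Its mean was 395387, and 25.5% of genes with a mean over 10000 were lower. The part of vit-2 in the col result was not tested.

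The members are alike in build. All but col-182 matched a protein-coding gene of the annotation, 140 in number. Their median length was 304 residues, against 347 for protein-coding genes, with a median of 2 exons, against 6. They were spread over all chromosomes, with 39 on chromosome IV (27.7% of members, against 16.6% of protein-coding genes matched). The 32 lower members were 11 of 28 on chromosome V, 7 of 39 on IV and 6 of 12 on III. On X they were 4 of 22, on II 3 of 23 and on I 1 of 16. Lower calls were 22.7% of the whole family and 8.11% of all genes. No member on chromosome I had a mean over 1000.

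Neighbouring members could differ in level and direction. Of 23 pairs in which no other protein-coding gene starts between the 2 members, 13 had log2 values of the same sign, and 10 had means more than 10-fold apart. In 14 pairs at least 1 gene was called, and in 4 both were. The tandem genes col-92 (log2 -1.44 ± 0.43), col-93 (log2 -1.01 ± 0.13) and col-94 (log2 -0.66 ± 0.18) on chromosome III were all lower in the authors' deposited table. On the same chromosome col-95 and col-96 are read toward each other and end 560 bases apart, and col-95 was higher (log2 1.55 ± 0.38) where col-96 was lower (log2 -0.70 ± 0.17) in the authors' deposited table. col-96 had 518 and 505 normalized counts in mutant libraries, against 887 and 777 in wild-type libraries. On chromosome II, col-20 (log2 -1.04 ± 0.13) was lower between col-17 (log2 1.32 ± 0.62) and col-73 (log2 0.82 ± 0.45), which were not called in the authors' deposited table. In 48 members the gene span overlaps a protein-coding gene outside the family, and in 25 of these the overlapping gene had the higher mean. For the 13 of the 48 with a mean over 1000, no overlapping gene listed in the table had the higher mean. col-83 and col-174 have the same values in every column, with a mean of 4.09 in the authors' deposited table, and whether they share reads was not tested.

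Abundant col genes also shifted together between libraries of 1 genotype. Over the 27 with a mean above 1000, the mutant library of size factor 0.707 was higher than that of 1.06 for 24 genes, by a median log2 of 0.28. The 2835 genes of that level with reads worked out had a median of -0.14. The wild-type library of size factor 1.42 was higher than that of 0.963 for all 27, by a median log2 of 0.22. For those 2835 genes the median was -0.12. The shift between genotypes, a median log2 of -1.01, was larger than either. The members are therefore not independent of one another, and their count is not a number of replicates. Without the wild-type library of size factor 1.42, the median log2 of the 27 was -0.83, the nearest to 0 of the 4 values with a library left out.

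**Figure D5:**
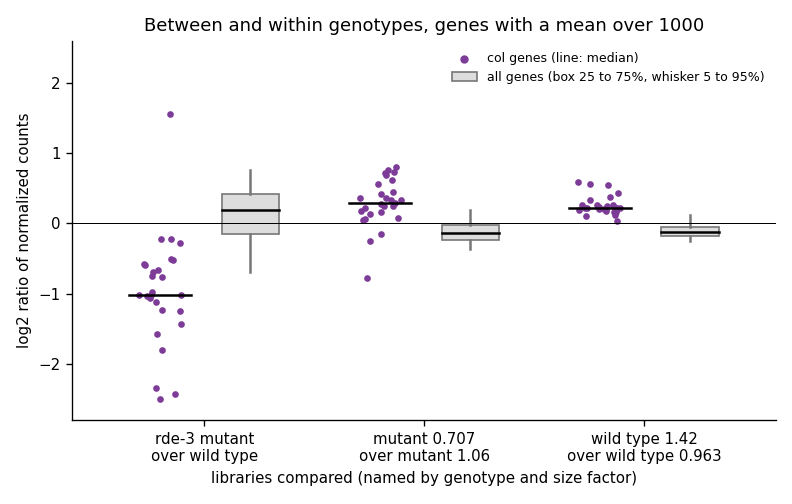
Purple points give the log2 ratio of normalized counts of the 27 col genes with a mean over 1000, for mutant over wild type and for the 2 libraries within each genotype. Boxes are for the 2835 genes of that level with reads worked out. Between genotypes 26 of the 27 col genes lie below 0 (median -1.01), and within genotypes 24 and 27 of them lie above 0 (medians 0.28 and 0.22).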

How the data were processed

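The labels' protocols give TRIzol extraction, oligo(dT) purification and the Nextera XT kit, whose libraries hold no strand. Tools named in the submitters' processing notes are STAR 2.7.0a, Trim Galore 0.4.4, SAMtools 1.3.1 and cutadapt 1.14, with the builds ce11 and WBcel235. How reads were counted, how reads that match several places were treated and which statistical model was fitted is not given in the sources used here. Deposited were a table of 18638 features (18468 genes and 170 repeats) and a smaller one, which holds its 3254 features with an adjusted p under 0.05. Its signal column is, by its name and values, the mean over libraries of counts divided by size factors. One deposited column holds log2 fold changes and another their standard errors. The score that the authors deposited is a Wald statistic, equal to log2 over standard error within 1.1e-13. The deposited adjusted p-values match a Benjamini-Hochberg adjustment across the 18638 features within 1.8e-15. These statistics were used as they stand and no count test was run.

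Reads per library were worked out from the deposited signal column with Python 3.11.15 and numpy 2.4.6, as the whole numbers whose sum over 4 size factors gives the mean. Only sets near the deposited ratio of the genotypes were searched. Under a mean of 1000 just 1 of these gave the mean, and a negative binomial fit with the dispersion implied by the standard error then gave the deposited log2, which is a closer check. From 1000 up the deposited log2 was also used to choose the set. On simulated data 700 of 700 sets were right, and 0 of 508 means with random offsets were solved. The simulation drew on no feature with a mean over 10000, and the offsets were tried only under a mean of 1000. How well the search does at the level of the most abundant col genes was therefore not tested. A library's genotype was read from the sign of log2 of features with reads in that library alone. Depth limits precision, and intervals cover counting error only. Coordinates are from Ensembl release 115, matched by name for 140 col genes and 17067 of 18468 genes.

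The members and gene lists were chosen with earlier results of these data known, and the lists are recalled from the literature, so no list carries a test of its own. Named genes are up to 12 highest (3 were found) and 12 lowest called members with a mean of at least 100, the 8 of highest mean, the members of the stage and response lists and, in other lists, the named cuticle collagens and the 6 called genes of smallest adjusted p. Other col genes that are named, and phy-2, mlt-9, dpy-18, lin-29, vit-2 and ZK1193.2, were chosen after their values were seen. Sequences were not used here.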

Additional observations from a re-analysis of the deposited data

How the results depend on the processing

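The medians over the col genes and in each bin kept their sign under the alternatives that gave them. With a t distribution of 2 degrees of freedom the counts of col genes higher and lower were 0 overall and in every bin, as they were over all genes (unadjusted p under 0.05: 4 col genes higher and 22 lower, where lower calls were 15.6% of col genes and 2.71% of all genes). At an adjusted p of 0.01, 3 col genes under 100 were higher. Removing a trend with transcript length gave a median log2 of -0.86 over the col genes above 1000. With bins cut at 50 and 500, 2 genes were higher and 0 lower in the lowest bin, and 5 were higher in the middle one. With each library left out in turn (refits chosen after seeing the data, at fixed dispersions estimated from all 4 libraries, so that a lone library is taken to vary like the others), the ranges were as follows. Higher calls numbered 4 to 7 and lower calls 24 to 35. Under 100, higher calls numbered 2 to 4 and lower calls 0 to 3. Between 100 and 1000, lower calls numbered 5 to 9 and higher calls stayed at 2. Over 1000, higher calls numbered 0 to 1 and lower calls 18 to 23. The median log2 ran from -0.34 to -0.04 over all col genes, from 0.12 to 0.40 under 100, from -0.71 to -0.31 between 100 and 1000 and from -1.15 to -0.83 over 1000. Of the 40 calls, 28 were kept without the mutant library of size factor 1.06, 38 without that of 0.707, 31 without the wild-type library of size factor 1.42 and 37 without that of 0.963. Recentring on the median of genes with a mean of at least 100, a shift of 0.05, kept all 40 calls and added col-119, and adjusting over features with a mean of at least 10 kept all 40 and added col-158. Requiring libraries of the genotypes not to overlap kept all 40. Over all genes it left 1733 of 1737 higher and 1492 of 1497 lower calls, so nearly every called gene passes it. Removing a trend with GC content and leaving out near-identical copies were not run, because no sequences were used here. No paired analysis was possible because the libraries worked out from the deposited means carry no replicate number. Under a mean of 10 the errors were too large to show changes of several fold.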
